A study of Danio rerio with 4 samples.

Results

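The 89 genes described here were protein-coding genes with a low level in pre-vitellogenic follicles of the zebrafish ovary and a level closer to 0 in primary growth follicles. They were chosen from the deposited mRNA table by 3 limits. The summed level had to be 3 FPKM or more in the pre-vitellogenic library and below 0.5 FPKM in the primary growth library. The transcript length, weighted by FPKM, had to be 1000 bases or more. FPKM counts sequenced fragments scaled to transcript length and to the size of the library. The table held 29458 gene names, of which 19571 were protein-coding and reached the length limit, and 8943 of these reached 3 FPKM in pre-vitellogenic follicles. The 89 genes were 0.995% of those 8943. The pre-vitellogenic level, the primary growth level and the direction of the difference were thus fixed by the choice and are given as a description.

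The study asked which miRNAs and transcripts differ when a follicle is activated, that is, when it leaves the primary growth stage for the pre-vitellogenic stage. The groups were pre-vitellogenic follicles and primary growth follicles, separated by their morphology and size after dissection of ovaries from AB strain adults aged 3 months. The labels give the same strain, age, light cycle and feeding for both and name no treatment. Each stage gave 1 mRNA library, so no difference has a replicate check and no p-value is given. A follicle holds an oocyte and the cells around it, and in such bulk samples fewer cells of a type and less RNA per cell cannot be told apart. The labels do not say how many fish or follicles went into a library.

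The growing fish oocyte is wrapped in a layer of granulosa cells that rest on a basement membrane, with steroid-making theca cells, fibroblasts and blood vessels outside it. During the first growth phase the layer is thin and the oocyte supplies most of the RNA. As the follicle leaves this phase the granulosa layer thickens, theca and vessels become established, and the follicle cells acquire receptors for pituitary hormones and enzymes that make sex steroids. Genes whose transcripts come from the cells around the oocyte are therefore of interest at this step.

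The table listed 33985 transcripts above 0 FPKM in the pre-vitellogenic library and 32066 in the primary growth library, with summed FPKM of 608220 and 730172. The lowest values did not fall on whole steps, so the read depth is unknown. Differences are given as log2(FPKM + 1) in pre-vitellogenic minus primary growth follicles. Over the 12022 gene names that reached 1 FPKM in each library their median was 0.42, a shift against which all differences below are to be read. Among the 11067 coding genes that met the length limit and reached 1 FPKM in either library, 32.8% were higher in pre-vitellogenic follicles by 2-fold or more, and 2.72% were lower by as much. All 89 genes were 2-fold higher, which the choice fixed. Their median difference was 1.99, and that of the 11067 genes was 0.63.

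None of the 89 genes was listed at 0 in primary growth follicles. Their levels ran from 3.03 to 21.3 FPKM in pre-vitellogenic follicles, with a median of 4.38 FPKM, and from 0.0254 to 0.497 FPKM in primary growth follicles, with a median of 0.375 FPKM. The genes were thus faint in one library and low in the other, and 5 of them reached 10 FPKM. In sum they made up 461 FPKM, or 0.0758% of the pre-vitellogenic total, and 29.96 FPKM, or 0.00410% of the primary growth total. The linear ratio of the levels was 10 or more for 65 genes and 20 or more for 27. It exceeded 100 for rin2, foxp4 and zeb2a, whose primary growth levels were all below 0.05 FPKM, so that these ratios rest on very small denominators.

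**Figure D1:**
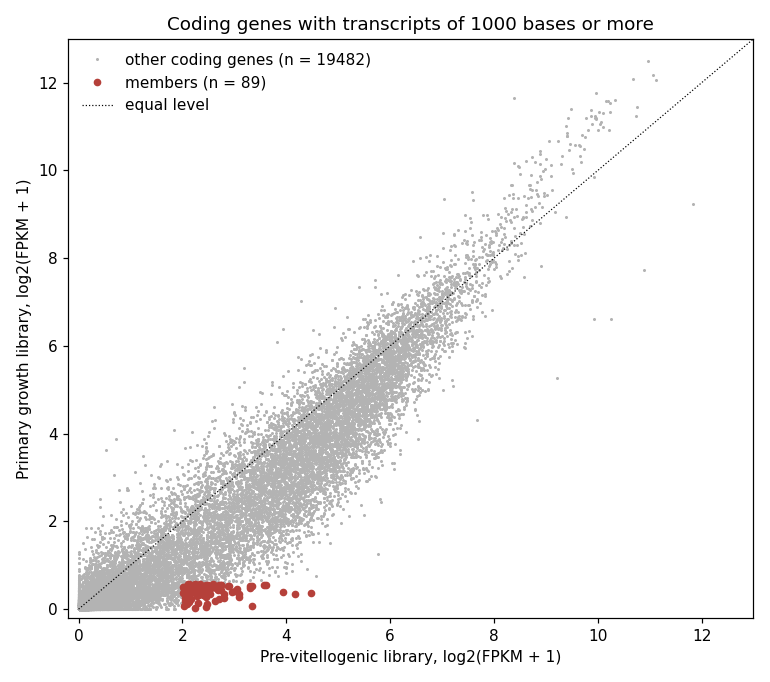
Level of each protein-coding gene of 1000 bases or more in the pre-vitellogenic library (horizontal axis) and the primary growth library (vertical axis), both in log2(FPKM + 1), 1 point per gene. The 89 members (red) lie along the lower edge of the cloud, and most other genes lie nearer the dotted line of equal level.

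The authors' table gives a lower and an upper bound with each FPKM, the only measure of error there is. Of the 194 transcripts under the 89 names, 193 had a lower bound of 0 FPKM in pre-vitellogenic follicles. The exception was the main transcript of cpda, a membrane carboxypeptidase that trims peptides in the secretory pathway, at 3.95 FPKM with bounds of 0.154 and 7.75 FPKM in pre-vitellogenic follicles and 0.452 FPKM with an upper bound of 1.09 FPKM in primary growth follicles. For none of the 89 genes did the summed lower bound in pre-vitellogenic follicles pass the summed upper bound in primary growth follicles. Among the other 8854 coding genes at 3 FPKM or more this held for 2. No difference of a single member is therefore larger than these bounds, which were summed over transcripts. For the other genes named below the comparison is not given gene by gene.

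The members were sorted by known role. Roles were given to the members only, so no count per role has a share over all coding genes beside it. Enzymes of steroid and prostaglandin metabolism numbered 4. The gene hsd17b1 (chromosome 3, 17767912 to 17776090, Zv9, minus strand), which encodes the enzyme that turns estrone into estradiol and is a granulosa cell product, was at 14.2 FPKM in pre-vitellogenic follicles and 0.313 FPKM in primary growth follicles, a log2 difference of 3.54. Its annotated span overlapped that of C3H16orf13 on the opposite strand, which was at 20.5 FPKM in both libraries, and the sources do not say whether reads were assigned by strand. The gene hsd3b1 (chromosome 9, 22227790 to 22233809), for the enzyme that makes progesterone from pregnenolone, was at 3.94 FPKM in pre-vitellogenic follicles and 0.105 FPKM in primary growth follicles. The gene h6pd, whose product supplies NADPH to steroid dehydrogenases inside the endoplasmic reticulum, was at 3.04 and 0.294 FPKM in pre-vitellogenic and primary growth follicles. A gene listed as CU928070.1, to which a table of current symbols gives HPGD, the prostaglandin-degrading dehydrogenase, was at 4.55 and 0.0919 FPKM in the same order. The last 3 had no overlapping annotated gene at 3 FPKM or more.

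Secreted proteins and proteins of the extracellular matrix numbered 9. The highest was COL28A1 (1 of 4) (chromosome 6, 3446263 to 3485273), a chain of collagen XXVIII, a minor collagen found beside basement membranes. It was at 17.1 FPKM in pre-vitellogenic follicles and 0.265 FPKM in primary growth follicles, a log2 difference of 3.84. The pre-vitellogenic value was the sum of 2 transcript models whose spans overlap only in part. They were at 7.70 FPKM (3446263 to 3469006) and 9.37 FPKM (3466419 to 3485273), so neither reached 10 FPKM alone. Components of the basement membrane stood beside COL28A1 (1 of 4). The gene lamb1a, for a laminin beta chain, was at 4.82 and 0.442 FPKM, col18a1, for the basement membrane collagen that yields endostatin, at 3.79 and 0.443 FPKM, and tinagl1, for a matricellular protein that binds laminin and integrins, at 5.44 and 0.375 FPKM, each in pre-vitellogenic and primary growth follicles. The name lamb1a covered 2 gene IDs annotated on opposite strands of chromosome 25, at 2.52 and 2.30 FPKM in pre-vitellogenic follicles, so neither ID alone reached the limit of 3 FPKM.

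Among secreted signals, PDGFC, a growth factor for mesenchymal cells, was at 3.50 FPKM in pre-vitellogenic follicles and 0.474 FPKM in primary growth follicles. Its main receptor gene pdgfra was a member too, at 4.27 FPKM in pre-vitellogenic follicles and 0.255 FPKM in primary growth follicles. The value of pdgfra was the sum of 2 gene IDs on chromosome 20, at 2.39 and 1.88 FPKM in pre-vitellogenic follicles and at 0 and 0.255 FPKM in primary growth follicles, and neither reached 3 FPKM alone. The gene sema3e, for a secreted semaphorin that guides vessels and axons, was at 5.70 and 0.471 FPKM in pre-vitellogenic and primary growth follicles. The gene igfbp5b, for a binding protein of insulin-like growth factors that mammalian granulosa cells also make, was at 3.17 and 0.185 FPKM. The complement gene c4 (3.94 and 0.285 FPKM) and the carboxypeptidase gene cpn1 (4.59 and 0.290 FPKM) complete the group. The span of c4 overlapped trim3a on the opposite strand, at 5.33 FPKM in pre-vitellogenic follicles and 1.25 FPKM in primary growth follicles, and a transcript of 611 bases carried 51.5% of its pre-vitellogenic value.

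**Figure D2:**
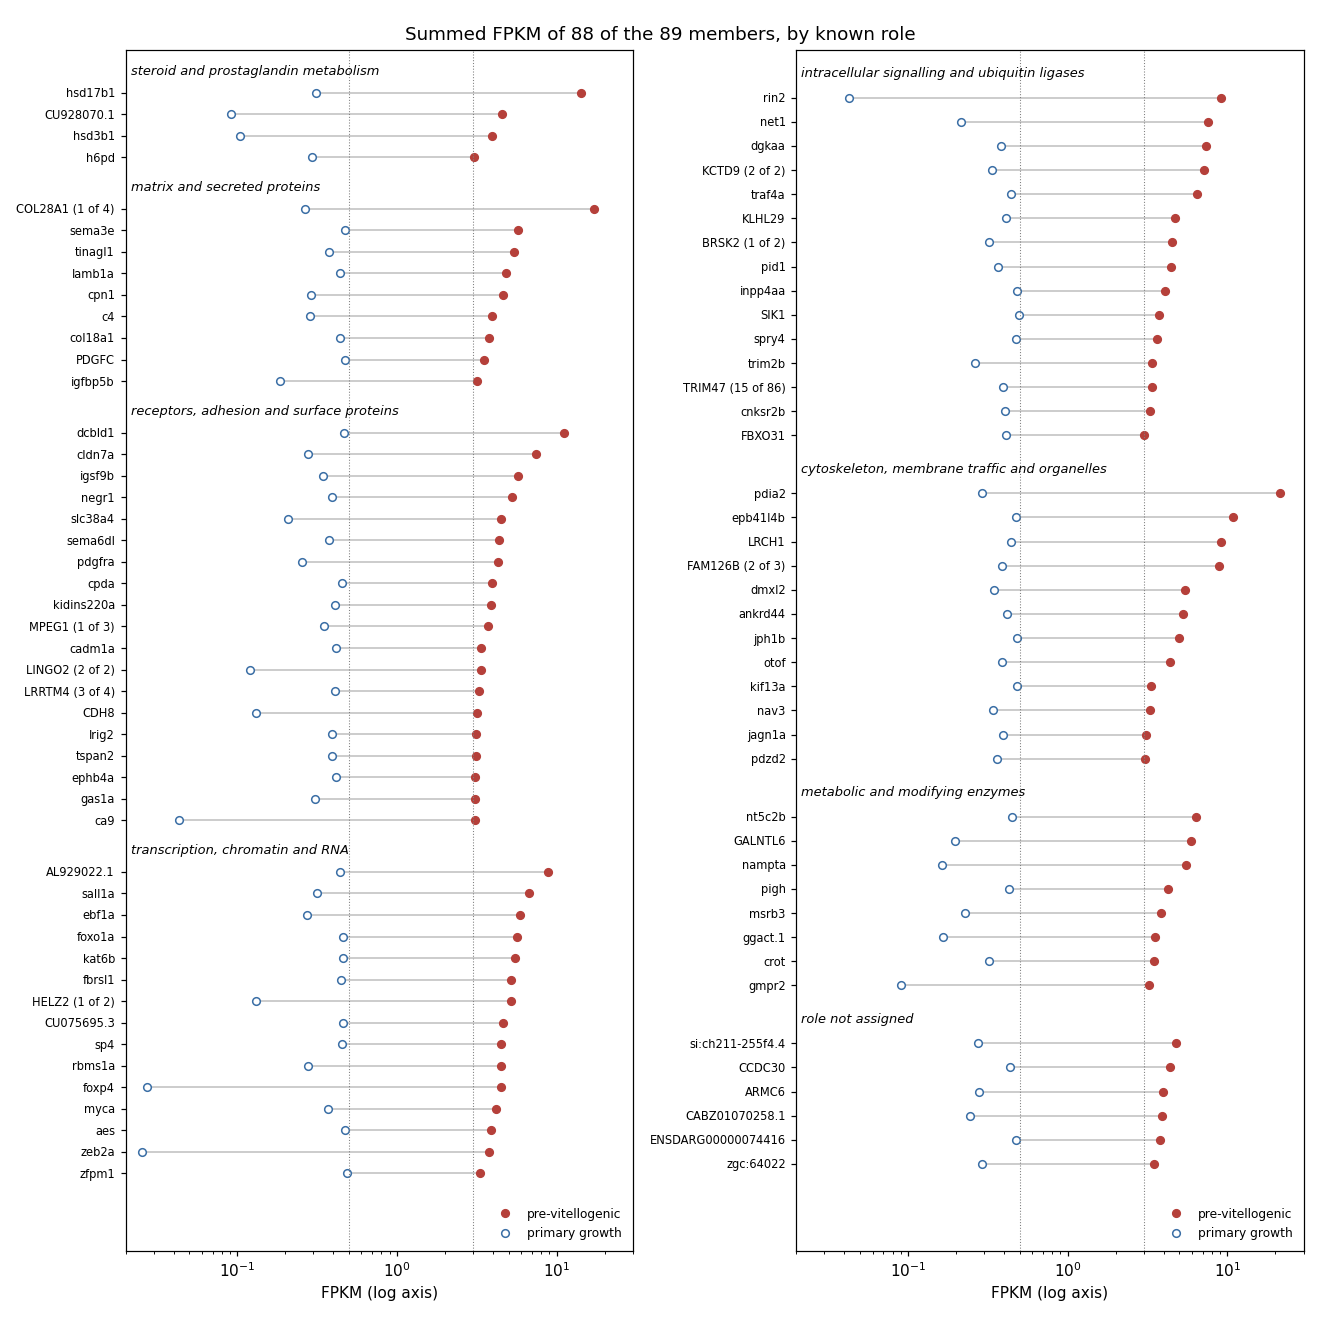
Summed FPKM of 88 of the 89 members on a log axis, in the pre-vitellogenic library (filled red) and the primary growth library (open blue), grouped by known role. Dotted lines mark the limits of 0.5 and 3 FPKM. In every group most members sit close to the limit of 3 FPKM, and pdia2, COL28A1 (1 of 4), hsd17b1, dcbld1 and epb41l4b lie furthest above it.

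Receptors, adhesion molecules and other surface proteins formed the largest group by number, with 20 genes. How large this group is among all coding genes was not counted. The 20 genes were at 3.08 to 11.2 FPKM in pre-vitellogenic follicles and 0.0433 to 0.466 FPKM in primary growth follicles. The gene dcbld1, for a transmembrane protein with a discoidin domain, led them at 11.2 and 0.466 FPKM. The claudin gene cldn7a, for a protein of tight junctions in epithelia, was at 7.48 FPKM in pre-vitellogenic follicles and 0.278 FPKM in primary growth follicles. Besides pdgfra, the receptor tyrosine kinase gene ephb4a, known for its part in sorting arteries from veins, was at 3.10 and 0.416 FPKM. The transmembrane semaphorin gene sema6dl was at 4.38 and 0.378 FPKM, and gas1a, for a surface co-receptor of hedgehog ligands, at 3.10 and 0.308 FPKM. Adhesion genes known best from the nervous system were among them, igsf9b (5.74 and 0.342 FPKM), negr1 (5.24 and 0.390 FPKM), cadm1a (3.37 and 0.415 FPKM) and the cadherin gene CDH8 (3.16 and 0.131 FPKM).

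The family of leucine-rich repeat names held 3 members. LINGO2 (2 of 2), whose product is a neuronal surface protein in mammals, was at 3.37 FPKM in pre-vitellogenic follicles and 0.120 FPKM in primary growth follicles. LRRTM4 (3 of 4), for a synapse-forming protein in mammals, was at 3.25 and 0.407 FPKM, and lrig2, for a membrane protein that restrains growth factor receptors, at 3.15 and 0.393 FPKM. The 3 stood among the 26 genes of that family at 3 FPKM or more in pre-vitellogenic follicles. Members were 0.995% of all coding genes of sufficient length at that level. Counts this small say little of a family. The amino acid transporter gene slc38a4 was at 4.50 and 0.209 FPKM, and as 1 of 157 solute carriers (0.637%) it was no more than that share. The carbonic anhydrase gene ca9, a common marker of low oxygen in mammals, was at 3.08 FPKM in pre-vitellogenic follicles and 0.0433 FPKM in primary growth follicles. Others in this group were tspan2, kidins220a, cpda and MPEG1 (1 of 3).

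Regulators of transcription, chromatin and RNA numbered 15, at 3.32 to 8.88 FPKM in pre-vitellogenic follicles and 0.0254 to 0.485 FPKM in primary growth follicles. A gene listed as AL929022.1, whose current symbol is sox13, was at 8.88 and 0.443 FPKM. The zinc finger gene sall1a, known from kidney and limb development, was at 6.76 FPKM in pre-vitellogenic follicles and 0.314 FPKM in primary growth follicles. The gene ebf1a, for a factor of B cells and of mesenchymal cells such as pericytes and fat precursors, was at 5.94 and 0.273 FPKM. The gene foxo1a (chromosome 16, 6063891 to 6072221) was at 5.66 FPKM in pre-vitellogenic follicles and 0.457 FPKM in primary growth follicles. Its mouse counterpart is an abundant granulosa cell factor of growing follicles, held in check by follicle-stimulating hormone through PI3 kinase.

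The gene zeb2a, for a repressor of epithelial genes in mesenchymal cells, was at 3.76 FPKM in pre-vitellogenic follicles and 0.0254 FPKM in primary growth follicles, the lowest primary growth level of all members. The forkhead gene foxp4 was at 4.48 and 0.0272 FPKM. The growth-promoting factor gene myca was at 4.196 and 0.368 FPKM, and the acetyltransferase gene kat6b at 5.48 and 0.457 FPKM. The remaining genes were fbrsl1, HELZ2 (1 of 2), CU075695.3 with the current symbol RFX7, sp4, rbms1a, aes and zfpm1. Of 217 homeobox, forkhead and SOX genes of sufficient length by name, 30 were at 3 FPKM or more in pre-vitellogenic follicles. Among them foxo1a and foxp4 were the 2 members (6.67%, beside 0.995% of all), a count too small to say much of a family. Families were matched by the listed name, so AL929022.1, with the current symbol sox13, was not counted.

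Intracellular signalling proteins and ubiquitin ligases numbered 15. The gene net1, for an activator of the GTPase RhoA, was at 7.54 FPKM in pre-vitellogenic follicles and 0.214 FPKM in primary growth follicles. The diacylglycerol kinase gene dgkaa was at 7.34 and 0.383 FPKM, and traf4a, for an adaptor found at epithelial junctions, at 6.47 and 0.443 FPKM. KCTD9 (2 of 2), for a protein that recruits substrates to cullin ligases, was at 7.12 and 0.337 FPKM. The gene spry4, whose product restrains receptor tyrosine kinase signalling, was at 3.64 and 0.472 FPKM, and the kinase gene BRSK2 (1 of 2) at 4.53 and 0.321 FPKM. Of 160 ubiquitin ligase genes by name at 3 FPKM or more 4 were members (2.5%, beside 0.995% of all), namely KLHL29 (4.71 and 0.412 FPKM), trim2b (3.39 and 0.263 FPKM), TRIM47 (15 of 86) (3.38 and 0.394 FPKM) and FBXO31 (3.03 and 0.413 FPKM). As its name says, TRIM47 (15 of 86) is a copy in a large family, in which reads of near-identical copies are hard to place. The other genes of the group were rin2, SIK1, cnksr2b, inpp4aa and pid1.

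Genes of the cytoskeleton, membrane traffic and organelles numbered 12 and included the highest member. The gene pdia2 (chromosome 1, 9030573 to 9040849), for a protein disulfide isomerase that folds secreted proteins in the endoplasmic reticulum, was at 21.3 FPKM in pre-vitellogenic follicles and 0.289 FPKM in primary growth follicles, a log2 difference of 4.11. A transcript of 1845 bases carried 93.5% of its pre-vitellogenic value. The gene epb41l4b, for a member of the band 4.1 family that links membrane proteins to actin, was at 10.9 and 0.472 FPKM. LRCH1, for a protein with leucine-rich repeats and an actin-binding fold, was at 9.15 and 0.440 FPKM, and FAM126B (2 of 3), for a subunit of the plasma membrane PI4 kinase complex, at 8.82 and 0.387 FPKM. The kinesin gene kif13a was at 3.34 and 0.483 FPKM. The rest were dmxl2, ankrd44, jph1b, otof, nav3, jagn1a and pdzd2, at 3.07 to 5.42 FPKM in pre-vitellogenic follicles.

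Metabolic and modifying enzymes numbered 8, at 3.25 to 6.34 FPKM in pre-vitellogenic follicles and 0.0909 to 0.450 FPKM in primary growth follicles. They included the nucleotidase gene nt5c2b (6.34 and 0.450 FPKM), the mucin-type glycosylation gene GALNTL6 (5.92 and 0.197 FPKM) and nampta, for the enzyme that salvages nicotinamide into NAD (5.49 and 0.164 FPKM). The others were pigh, for a subunit that starts the synthesis of membrane anchors, crot, for a peroxisomal carnitine transferase, gmpr2, msrb3 and ggact.1. A further 6 genes have no role assigned here, among them an unnamed gene ID.

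The cell types to which the members point were read from 12 marker lists of ovarian and other cells. Of the 89 genes 4 stood on these lists. They were hsd17b1 on the granulosa list, hsd3b1 on the theca and steroidogenic list, pdgfra on the fibroblast and stroma list and MPEG1 (1 of 3), a copy of the macrophage perforin gene at 3.72 and 0.349 FPKM, on the leukocyte and thrombocyte list. The other listed copies of that perforin gene were at or near 0. The copy named mpeg1 was at 0.165 FPKM in pre-vitellogenic follicles and listed at 0 in primary growth follicles, and MPEG1 (3 of 3) was listed at 0 in both. No member stood on the lists for endothelium, mural and smooth muscle, surface epithelium, erythrocyte, neuron and glia, motile cilia, skeletal and cardiac muscle, or oocyte. In that order these held 4, 5, 15, 2, 7, 4, 2 and 31 genes of sufficient length at 3 FPKM or more in pre-vitellogenic follicles. The granulosa, theca, fibroblast and leukocyte lists held 7, 11, 12 and 9. Members were 0.995% of all such coding genes, so on lists this short neither a member nor its absence says much of a cell type.

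The lists were also read just below the limit. Of the 8686 coding genes of sufficient length under 0.5 FPKM in primary growth follicles, 8.28% reached 1 FPKM in pre-vitellogenic follicles and 1.02% reached 3 FPKM. On the granulosa list 7 of 21 such genes reached 1 FPKM. Beside hsd17b1 these were wt1a (2.91 and 0.226 FPKM), nr5a1a (2.60 FPKM, listed at 0 in primary growth), inhbaa, amh, kitlga and fshr, all short of 3 FPKM. The defining granulosa marker cyp19a1a did not reach 1 FPKM, at 0.370 FPKM in pre-vitellogenic follicles and 0.315 FPKM in primary growth follicles. Nor did the defining marker foxl2, at 0.273 and 0.0337 FPKM. Its other entry, FOXL2, was at 2.74 and 0.224 FPKM, and at 861 bases it was under the length limit. On the fibroblast and stroma list 8 of 35 reached 1 FPKM, among them col1a1a (2.15 and 0.312 FPKM), dcn (2.73 and 0.436 FPKM), col6a1 and col6a2. On the mural and smooth muscle list 4 of 21 did so, led by myh11a (2.75 and 0.240 FPKM) and pdgfrb (1.49 and 0.123 FPKM). The endothelium list had 3 of 28, vsg1 (1.94 and 0.151 FPKM), fli1a and cldn5a. The theca and steroidogenic list had 2 of 10, hsd3b1 and nr5a1a. The neuron and glia list had 3 of 34, the skeletal and cardiac muscle list 2 of 24, the motile cilia list 1 of 20 and the surface epithelium list 1 of 11. The oocyte list had none of 1, the leukocyte and thrombocyte list 1 of 32 and the erythrocyte list none of 7. These counts include the members hsd17b1, pdgfra, hsd3b1 and MPEG1 (1 of 3), which the choice itself placed above 1 FPKM. MPEG1 (1 of 3) was the only leukocyte gene counted, and nr5a1a was counted on both the granulosa and the theca list.

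Over all coding genes, whatever their length, 29.5% were 2-fold or more higher in pre-vitellogenic follicles, 5.7% were 2-fold or more lower, and the median difference was 0.52. With the length trend removed these became 13.0%, 7.63% and 0.05. The whole lists are set beside these values. On the granulosa list 13 of the 22 genes that reached 1 FPKM were higher by 2-fold or more and none was lower by as much, with a median difference of 1.199. Lower by less than 2-fold were wt1b (1.53 and 2.04 FPKM), dmrt1 (1.85 and 2.21 FPKM), nr0b1 (0.977 and 1.47 FPKM) and igf3. With the length trend removed it was 8 of 20, with a median of 0.53. On the mural and smooth muscle list 6 of 11 genes passed 2-fold upward and 2 downward, and the median was 1.00, or 3 of 8 upward, 2 downward and 0.65 without the trend. The fibroblast and stroma list had 10 of 30 higher and 1 lower, with a median of 0.60 that turned to -0.05 without the trend, when 5 of 23 were higher. The endothelium list had 4 of 16 higher and 1 lower, with a median of 0.74, and without the trend 3 of 12, 2 lower and 0.39. The surface epithelium list had 10 of 21 higher and 1 lower, with a median of 0.89. Without the trend 1 of its 20 genes was higher and 3 were lower, with a median of 0.30. Its summed level was 1214 FPKM in pre-vitellogenic follicles and 2321.5 FPKM in primary growth follicles. The gene epcam alone gave 682 and 1848 FPKM of these sums, which thus say little of the other genes of the list. The leukocyte and thrombocyte list had 5 of 21 higher, 2 lower (median 0.29), or 6 of 18, 3 lower and 0.03 without the trend. The neuron and glia list had 4 of 16 higher, 2 lower (median 0.11), or 2 of 13, 4 lower and -0.47 without it. Motile cilia had 1 of 13 higher and none lower, erythrocyte 1 of 6 higher and 1 lower, and skeletal and cardiac muscle none of 7 either way. On the oocyte list 1 of 35 passed 2-fold upward and 12 downward, and the median was -0.71, or 16 of 35 downward and -0.98 without the trend. The summed level of the granulosa list was 83.5 FPKM in pre-vitellogenic follicles and 22.7 FPKM in primary growth follicles, that of the mural and smooth muscle list 79.6 and 59.4 FPKM, that of the endothelium list 55.5 and 27.8 FPKM, and that of the oocyte list 9225 and 21389 FPKM. The theca and steroidogenic list was mixed. Of its 16 genes 8 passed 2-fold upward and none downward (median 1.00), and without the trend 5 passed upward and 1 downward (median 0.40). Its summed level was 1209 FPKM in pre-vitellogenic follicles and 1467 FPKM in primary growth follicles. Most of both sums came from scarb1, given below, and fdx1 (250 and 364 FPKM), so they say little of the rest. Beside hsd3b1, some other steroid genes were already high in primary growth follicles. The gene cyp11a1, for the enzyme that cleaves the cholesterol side chain, was at 97.2 FPKM in pre-vitellogenic follicles and 119.1 FPKM in primary growth follicles. A second entry, CYP11A1 (2 of 2), was low in both, at 0.837 and 0.232 FPKM in the same order. The gene cyp17a1, for the enzyme that leads toward androgens, was at 48.3 and 54.1 FPKM, hsd3b2 at 61.6 and 76.4 FPKM, and the lipoprotein receptor gene scarb1 at 553 and 752 FPKM. The cholesterol transfer gene star was at 0.184 FPKM in pre-vitellogenic follicles and listed at 0 in primary growth follicles. The part of these cells in the levels of the 89 genes was not tested.

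Defining markers of cells not thought to belong to the follicle gave a mixed picture. Of 6 neural markers, elavl3, mpz, sox10 and gfap were listed at 0 in pre-vitellogenic follicles, gap43 was at 0.186 FPKM there and 0.421 FPKM in primary growth follicles, and snap25a was at 4.88 and 3.57 FPKM, above many of the members in pre-vitellogenic follicles. Of 5 muscle markers, mylpfa and myl7 were listed at 0 in both libraries, actc1b and ckma were under 1 FPKM, and acta1b was at 2.82 and 2.59 FPKM. The 4 cilia markers were all under 1 FPKM in both libraries, with foxj1a listed at 0 in pre-vitellogenic follicles. The erythrocyte marker hbaa1, for a hemoglobin chain, was at 51.6 FPKM in pre-vitellogenic follicles and 55.1 FPKM in primary growth follicles, with alas2 (0.744 and 0.0347 FPKM) and slc4a1a (0.592 and 0.287 FPKM) far lower. The white blood cell markers were ptprc (1.32 and 0.616 FPKM), spi1b (1.15 and 0.996 FPKM), coro1a (0.748 and 2.28 FPKM), lcp1 (0.739 and 0.549 FPKM) and mpx (0.171 and 0.174 FPKM). The endothelial markers, of vessels that lie outside the granulosa layer, were mixed as well. Of these, kdrl was at 4.13 FPKM in pre-vitellogenic follicles and 0.981 FPKM in primary growth follicles. In the same order cdh5 was at 1.57 and 0.775 FPKM, tie1 at 0.0855 and 0.0308 FPKM, and flt1 at 0.228 and 0.0325 FPKM. Lower in pre-vitellogenic follicles were flt4 (0.798 and 1.07 FPKM) and PECAM1 (2 of 2) (0.189 and 0.292 FPKM), and the other endothelial markers were higher.

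**Figure D3:**
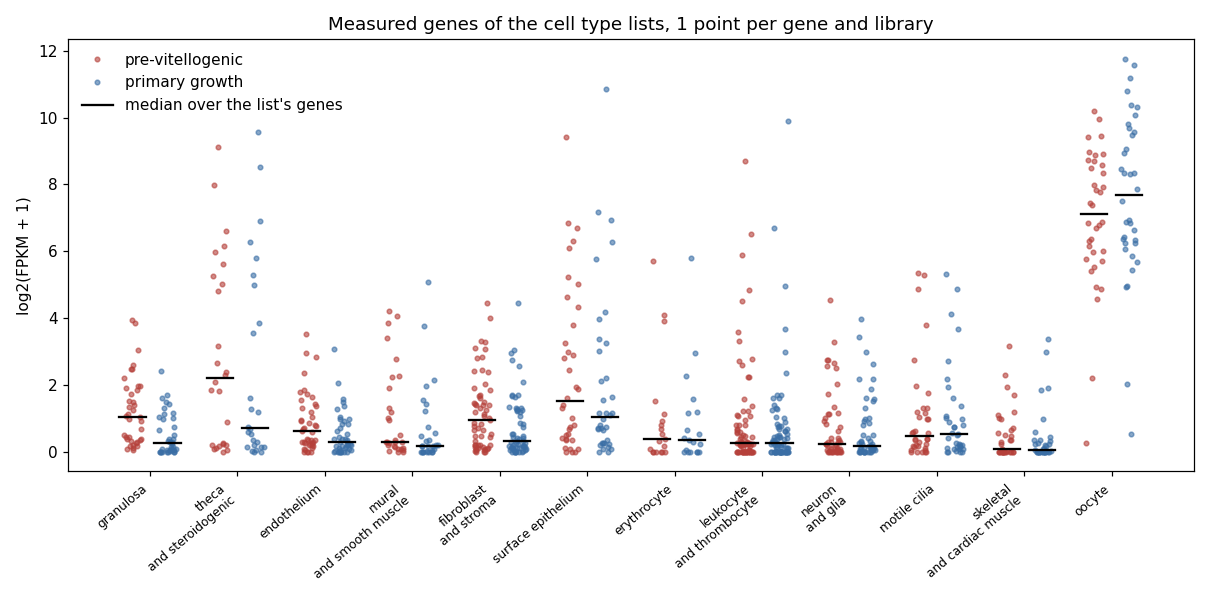
Level of every measured gene of 12 cell type lists, in log2(FPKM + 1), with the pre-vitellogenic library (red) left of the primary growth library (blue) for each list. Points are genes, levels are as deposited with the length trend left in, and black lines are medians over a list's genes. The granulosa, theca, fibroblast and surface epithelium lists have visibly higher medians in the pre-vitellogenic library, and the oocyte list, far above all others, has a lower one.

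Lists of functions were read as well, and as few members stood on them, the counts describe the lists rather than the members. Of 65 hormone, growth factor and guidance receptor genes that reached 1 FPKM, 46 were 2-fold or more higher in pre-vitellogenic follicles and 2 lower, with a median difference of 1.18, and pdgfra was the member among them. The median was 0.50 with the length trend removed, when 15 of 51 were higher. The steroid receptor gene pgr, for the progestin receptor (2.42 FPKM in pre-vitellogenic follicles and 0.296 FPKM in primary growth follicles), and the hedgehog transducer gene smo (2.43 and 0.155 FPKM) were under the limit of 3 FPKM. Of 74 transcription factor genes of gonadal and mesenchymal cells 29 passed 2-fold upward and none downward (median 0.86), beside 29.5% upward over all coding genes, and foxo1a and zeb2a were the members. Without the length trend it was 16 of 67 upward and 1 downward (median 0.49), beside 13.0%. Of 45 secreted growth factor genes 16 passed it upward and 6 downward (median 0.65), a share near the 29.5% of all coding genes, and PDGFC was the member. Without the trend 6 passed upward and 6 downward (median 0.22), and after division by the median ratio 9 and 7. No member stood on the lists of matrix regulators, junctions, lipid handling, embryonic patterning, or calcium and cAMP signalling. These held 9, 35, 26, 7 and 44 genes of sufficient length at 3 FPKM or more in pre-vitellogenic follicles. Beside a member share of 0.995% over all such coding genes, the absences say little.

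Many zebrafish genes exist as pairs that end in a and b. For 25 members a gene of the same name with the other letter was in the table, though a few of these pairs, such as pdgfra and pdgfrb, are separate genes in all vertebrates. Of the 25 partners 11 were above 3 FPKM in pre-vitellogenic follicles and none was a member. Members were 0.995% of all coding genes of sufficient length at 3 FPKM or more in that library. By 2-fold or more, 4 partners were higher in pre-vitellogenic than in primary growth follicles, namely kat6a, ephb4b, pdgfrb and namptb, and none was lower. A further 10 partners were under 1 FPKM in both libraries and so too low to be compared. Over all coding genes that reached 1 FPKM, 29.5% were higher and 5.7% lower by as much. Counts this small say little of the partners. The median partner difference was 0.25.

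The levels of the partners differed widely. In primary growth follicles 13 were already at 1 FPKM or more. The claudin gene cldn7b was at 77.3 FPKM in pre-vitellogenic follicles and 144.5 FPKM in primary growth follicles, against 7.48 and 0.278 FPKM for cldn7a. The gene mycb was at 47.9 and 32.4 FPKM against 4.196 and 0.368 FPKM for myca, cpdb at 58.4 and 64.6 FPKM against 3.95 and 0.452 FPKM for cpda, and jagn1b at 42.9 and 55.5 FPKM against 3.08 and 0.393 FPKM for jagn1a. In contrast, 10 partners were below 1 FPKM in both libraries. They included foxo1b (0.110 and 0.0451 FPKM), zeb2b (0.0980 and 0.0450 FPKM), sall1b (0.761 and 0.378 FPKM), ebf1b (0.168 and 0.411 FPKM) and lamb1b (0.308 and 0.0398 FPKM). The remaining 2, pdgfrb (1.49 and 0.123 FPKM) and kidins220b (2.54 and 0.966 FPKM), passed 1 FPKM in pre-vitellogenic follicles only. Reads of closely similar copies can be split between them in ways the table does not show.

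**Figure D4:**
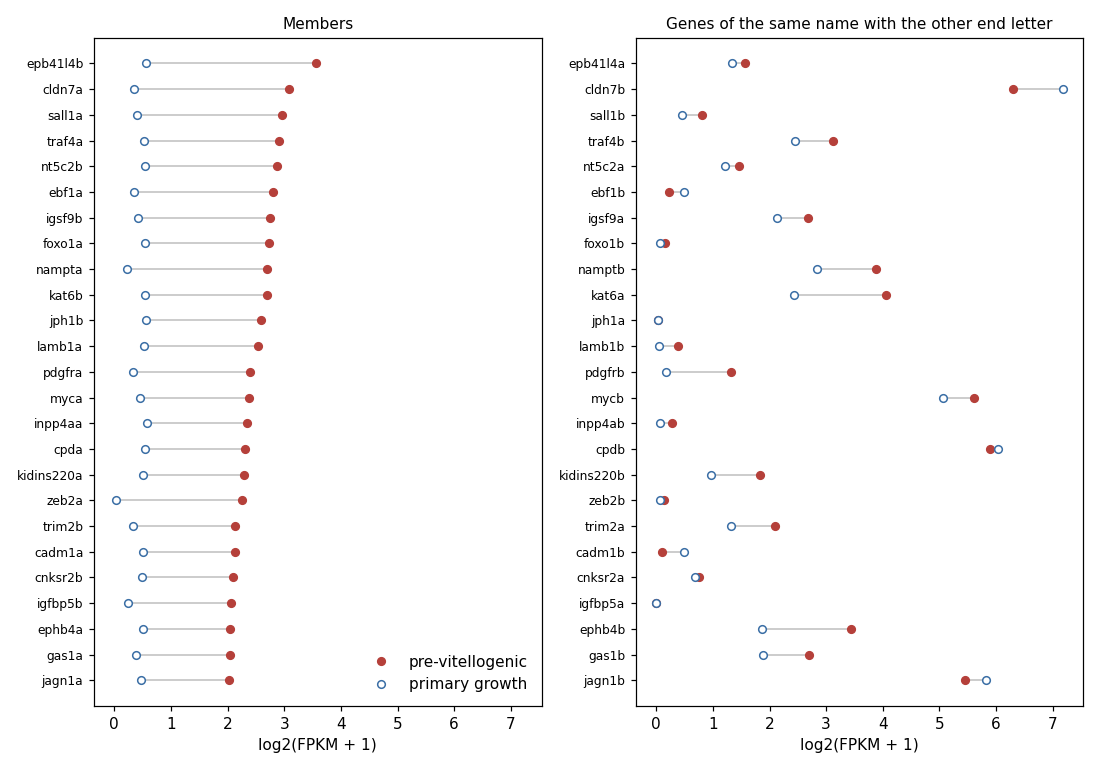
Levels in log2(FPKM + 1) of the 25 members with a partner gene (left) and of those partners (right), in the pre-vitellogenic library (filled red) and the primary growth library (open blue). Partners such as cldn7b, mycb, cpdb and jagn1b are high in both libraries, and others such as foxo1b and zeb2b are near 0 in both.

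Members were most frequent at low levels and among long transcripts. They made up 8.33% of the 468 coding genes at 3 to 4 FPKM in pre-vitellogenic follicles, 4.59% of the 741 at 4 to 6 FPKM and 1 of the 4799 at 20 FPKM or more. The primary growth limit was the same at every level, so a higher level called for a larger ratio. The fall with level thus follows at least in part from the choice. The median transcript length of the members was 2630 bases, against 2052 bases for the other 8854 coding genes at 3 FPKM or more. When these genes were cut into 5 length classes of nearly equal size, members were 10 of 1787 genes (0.560%) in the shortest class and 32 of 1789 (1.79%) in the longest. In the same classes the median log2 difference over all genes was 0.07 and 1.30, so long transcripts as a whole were higher in the pre-vitellogenic library. Removal of the length trend used 10 other length classes, cut from the coding genes that reached 1 FPKM in each library. With each pre-vitellogenic level divided by the median ratio of its class among these 10, 35 genes met the limits, all of them among the 89. Whether length itself set the membership of single genes was not tested.

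**Figure D5:**
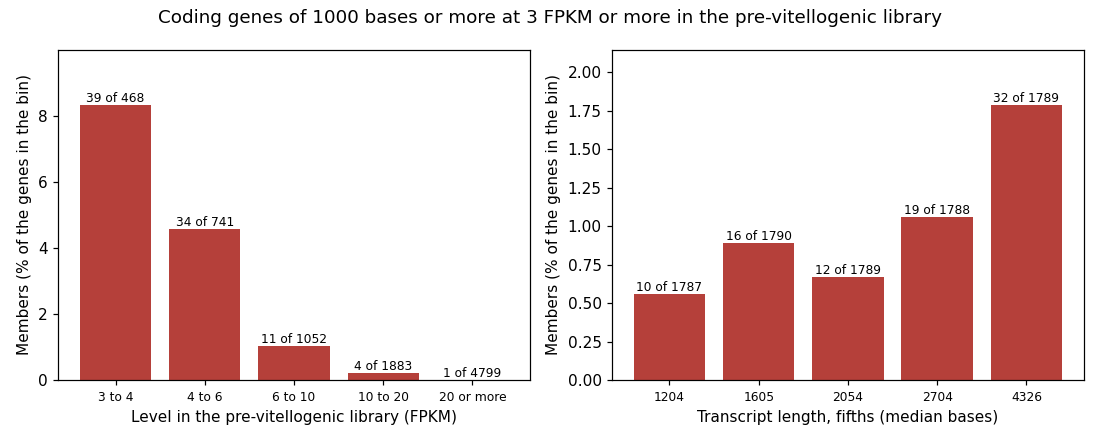
Share of members among coding genes of 1000 bases or more at 3 FPKM or more in the pre-vitellogenic library, by level in that library (left) and by 5 classes of transcript length (right). The counts above the bars show members of all genes in the bin. The share falls from 8.33% at 3 to 4 FPKM to 0.0208% at 20 FPKM or more, and reaches 1.79% in the longest class. The fall with level follows at least in part from the choice, which used that level and a fixed primary growth limit.

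The genes kept whatever the scaling numbered 26. Besides pdia2, COL28A1 (1 of 4), hsd17b1, dcbld1, epb41l4b and LRCH1, they included the gene of current symbol HPGD, pdgfra, foxo1a, ebf1a, myca, cldn7a, net1, nampta and cpn1. The value of pdgfra was a sum of 2 gene IDs, neither of which reached 3 FPKM alone. Once the length trend was removed, hsd3b1 (3.19 FPKM in pre-vitellogenic follicles) and PDGFC (3.98 FPKM) still met the limits, though both missed them after division by the median ratio. The levels of h6pd (1.13 FPKM), col18a1 (1.41 FPKM), zeb2a (2.35 FPKM), sema3e (2.58 FPKM) and lamb1a (2.61 FPKM) were then under 3 FPKM.

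Transcript models bore on some members. A single transcript was annotated for 37 of the 89 names. Over all members the median share of the pre-vitellogenic value carried by coding transcripts was 100%, but for 5 genes it was below 50%, which was 5.62% of members and 2.33% of the other genes at 3 FPKM or more. In rin2, a Rab5 activator listed at 9.08 FPKM in pre-vitellogenic follicles and 0.0428 FPKM in primary growth follicles, a noncoding piece of 330 bases carried 82.6% of the value with an upper bound of 40.2 FPKM, and its coding transcripts summed to 1.58 FPKM. The coding transcripts of jph1b (2.48 FPKM), SIK1 (1.64 FPKM), msrb3 (1.54 FPKM) and cnksr2b also stayed under 3 FPKM, as did those of tspan2 (1.62 FPKM). Short transcripts labelled as coding carried much of the pre-vitellogenic value of other members besides c4. In nav3 a transcript of 522 bases carried 56.8%, and in pdzd2 one of 534 bases carried 58.3%. In pdgfra one of 594 bases carried 55.9%, and in dmxl2 one of 276 bases carried 43.8%.

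All 25 chromosomes held a member, and the unnamed gene ID lay on a sequence not placed on a chromosome. Chromosome 9 held the most, 9 of its 333 coding genes of sufficient length at 3 FPKM or more (2.70%, beside 0.995% of all). Neighbouring members were rare, with 1 pair closer than 100000 bases, pdia2 and trim2b on chromosome 1, which lay 53701 bases apart. Overlap with another gene at 3 FPKM or more was annotated for 2 members (2.25%), hsd17b1 and c4, and for 7.91% of the other genes at that level. Besides lamb1a and pdgfra, the name cpn1 covered more than 1 gene ID, with nearly all of the value in 1 of them.

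Genes on either side of the limits differed little. The members nearest to 0.5 FPKM in primary growth follicles were SIK1 (3.75 FPKM in pre-vitellogenic follicles and 0.497 FPKM in primary growth follicles) and zfpm1 (3.32 and 0.485 FPKM), and just outside lay ldlr (4.48 and 0.504 FPKM) and LDLRAD4 (2 of 2) (4.25 and 0.507 FPKM). The members nearest to 3 FPKM in pre-vitellogenic follicles were FBXO31 and h6pd, and just outside lay pm20d1.2 (2.99 and 0.461 FPKM) and znf804a (2.98 and 0.400 FPKM). The shortest members were PDGFC at 1032 bases and gmpr2 at 1047 bases, and CREB3L4 at 993 bases was just too short. With the libraries exchanged, the same limits found 4 genes, or 0.0521% of the 7679 coding genes at 3 FPKM or more in primary growth follicles. They were MARCH4 (1 of 2) (0.450 FPKM in pre-vitellogenic follicles and 11.4 FPKM in primary growth follicles), gfra4 (0.332 and 4.72 FPKM), DUSP23 (1 of 2) (0.324 and 4.06 FPKM) and asb1 (0.388 and 3.39 FPKM).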

How the data were processed

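Qiagen kits were used for the RNA and paired-end Illumina sequencing for the mRNA libraries, per the labels' protocols. The authors deposited an FPKM for each transcript, with bounds on either side and the transcript length. TopHat2 2.0.11, Cufflinks 2.2.1 and Zv9 are named in the submitters' processing notes, with no role or order. Use of strand in counting is not stated in the labels. All 4 titles read PG, so stages were taken from the cell type labels; the miRNA table was not used. Rows were summed by gene name, and rows with no name by gene ID; 79 of the 94 gene IDs of the members had a current symbol. Differences are on the log2(FPKM + 1) scale, which understates those of low genes, and a gene was compared where either library reached 1 FPKM. With 1 library per stage no test was made. The rule gave back all 200 genes planted in each of 20 simulated tables and no other (Python 3.11.15, pandas 2.3.3). That outcome was set by how the values were simulated, so it checks only that the rule ran as written. It says nothing of how well the rule sorts measured genes with values near the limits.

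The members, the marker lists and the families were chosen with earlier results of these data known, and the role groups after the values were seen. The rule for named genes took the 20 highest members without a clone name and those on a cell type list. It took up to 6 of each functional list or family with 3 members or more, and the 2 genes nearest each limit on either side. It took up to 8 members listed at 0 in primary growth (there were none) and up to 8 members with a partner. The defining markers were part of the rule too, but only some of them are named in the text. Of those left out some were higher in pre-vitellogenic follicles. Others were lower, such as tcf21 (0.942 FPKM in pre-vitellogenic and 2.22 FPKM in primary growth follicles) and cdh1 (101.5 and 120.7 FPKM). All other members named were chosen after their values were seen. The values of 1 member are not reported here. No gene sequence was printed, since none was in the tables used here.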

Additional observations from a re-analysis of the deposited data

How the results depend on the processing

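Which genes met the limits depended on the scaling and on the limits, and no difference had a replicate. No paired analysis was possible because each stage has 1 mRNA library. The count of 89 became 154 after rescaling to the same FPKM total, 174 with mitochondrially encoded genes left out of that total, 49 after division by the median ratio and 35 with the length trend removed. It became 18 with a primary growth limit of 0.25 FPKM and 329 with 1 FPKM, 251 with a pre-vitellogenic limit of 2 FPKM and 29 with 5 FPKM, 135 with no length limit and 58 with 2000 bases. It was 0 when the deposited bounds had to separate, as were the other counts. Members on cell type lists, 4 as deposited, numbered 8 and 8 under the 2 rescalings to a total, 2 by the median ratio, 1 and 10 with the primary growth limits, 11 and 1 with the pre-vitellogenic limits, and 2 at 2000 bases. Members in the named families, 30 as deposited, numbered 54, 59, 15 and 11 under the 4 scalings, 7 and 82 with the primary growth limits, 74 and 8 with the pre-vitellogenic limits, and 19 at 2000 bases. With the libraries exchanged, 4 genes became 8 by the median ratio and 8 by the length trend, 0 and 19 with the primary growth limits of 0.25 and 1 FPKM, 21 and 1 with 2 and 5 FPKM, 25 with no length limit and 0 at 2000 bases. The median difference of 1.99 became 2.53 at 5 FPKM or more, 3.38 with a pseudocount of 0.1 FPKM and 2.58 with 0.5 FPKM. Most of these shifts follow from the construction of the alternative, and the cause of the rest was not tested. Summing by gene ID gave 90 genes, of which 3 were on cell type lists and 28 in the named families. The names pdgfra and lamb1a were lost there, since none of their gene IDs reached 3 FPKM alone. Leaving out failed rows gave 89 genes. Counting only coding transcripts, an alternative added after the data were seen, gave 84 genes, 83 of them among the 89. Depth is unknown, and bounds that reach 0 limit the reading of each single member.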
